A study of Mus musculus with 2 samples.

Results

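The genes of 8 AP-1 transcription factors, Jun, Junb, Jund, Fos, Fosb, Fosl1, Fosl2 and Atf3, were examined in chromatin loop maps of the mouse cerebral cortex, out of 21883 protein-coding genes. The genes were taken by name at their mm10 positions, and a loop was assigned to a gene when an anchor of the loop came within 2.5 kb of either gene end. This selected 10 of the 14779 loops listed for sham and 15 of the 15592 loops listed for stroke. The maps were made by Hi-C, which ligates and sequences DNA segments that lie close together in the nucleus. The stroke group, labelled MCAO, had a middle cerebral artery closed by a filament for 1 h, and cortex from the affected side was frozen after 6 h of reperfusion. Sham mice had the same anaesthesia and surgery, without the filament being advanced, and were killed after the same 6 h. The labels speak of 3 cortices for the groups, and strain, sex and age were not stated in the labels used. With 1 loop list for each group, the spread between animals is unknown, and the 2 conditions were compared by their values without a test. Hi-C measures no RNA, so the labelled tissue was not checked against marker genes. In this bulk tissue, a loop in more cells and a loop formed more often per cell cannot be told apart.

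AP-1 is a family of dimers built from basic leucine zipper proteins. Jun proteins pair with each other or with Fos proteins, while Fos proteins bind DNA stably only with a Jun-type partner, and Atf3 is a stress-induced relative that joins Jun proteins. Several of these genes, Fos, Fosb, Jun, Junb and Atf3 above all, are immediate early genes that are transcribed within minutes of neuronal activity or injury, and cerebral ischaemia is a classic inducer of them. A loop, as used here, is a pair of anchors joined by more paired-end tags (PETs) than the authors' caller expected, and it says nothing by itself about transcription.

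Depth was 34974213 PETs for sham and 40550536 for MCAO, a ratio of 1.16. Listed loops started at 10 PETs in both libraries, so a loop missing from a list may have lain just under that number there. The median loop had 12 PETs in sham and 13 in MCAO. All intervals below are 95% intervals and cover counting error only. PET numbers are those of the authors for each loop, and separate PETs may stem from copies of a molecule.

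More loops were listed at the AP-1 genes in MCAO, 15 (8.40 to 24.7, exact Poisson interval) against 10 in sham (4.80 to 18.4), and Jun accounted for the difference, with 2 loops in sham and 8 in MCAO. Without Jun, the members had 8 loops in sham and 7 in MCAO. Fosl2 had 3 and 3 loops, Fos, Fosl1 and Atf3 1 and 1 each, Fosb 2 and 0, Junb 0 and 1, and Jund none in either list. The intervals of the totals overlap widely. Over all protein-coding genes the lists held 7761 gene-end loops in sham and 9557 in MCAO, so these also were more numerous in MCAO. With at least 15 PETs per loop the members had 5 loops in sham and 8 in MCAO.

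In each library 6 of the 8 genes had a loop, against 43% of all protein-coding genes in sham and 47.9% in MCAO. Loop numbers were higher in MCAO at 2 members (Jun and Junb), where 28.7% of all genes had more, and lower at 1 (Fosb), where 20.7% had fewer. At the other 5 they were equal, as at 50.6% of all genes, genes without loops included. The members thus lay near the background in the number of genes that went either way. With a window of 10 kb at gene ends 4 members had more loops in MCAO, and with no window only Jun did.

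**Figure D1:**
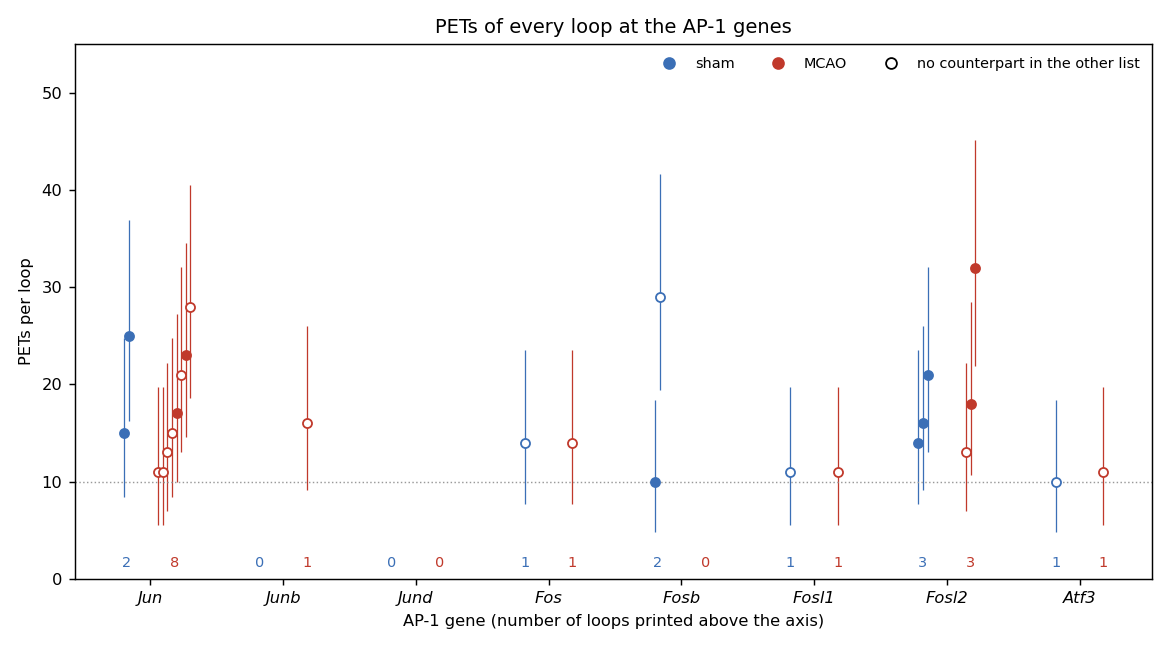
PETs of every loop at the 8 AP-1 genes, sham in blue and MCAO in red, with exact Poisson intervals as vertical lines. Open points have no counterpart in the other list, the numbers above the axis are loops per gene, and the dotted line marks the minimum of 10 PETs. Jun has 2 points in sham and 8 in MCAO, of which 6 are open.

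Jun (gene ID 16476, chromosome 4, 95049036 to 95052222, mm10, minus strand) encodes c-Jun, the AP-1 subunit that is activated by Jun N-terminal kinases. Its transcription start at 95052222 lay inside the Jun-side anchor of both sham loops and of all 8 MCAO loops. The 250 bases before that start are shown because every loop at Jun in both libraries covered the start next to them. The sequence is from RefSeq on GRCm38.p6, chr4:95052223-95052472, minus strand, 5′ to 3′, with the 2 known AP-1-like sites of this promoter in capitals.
Jun: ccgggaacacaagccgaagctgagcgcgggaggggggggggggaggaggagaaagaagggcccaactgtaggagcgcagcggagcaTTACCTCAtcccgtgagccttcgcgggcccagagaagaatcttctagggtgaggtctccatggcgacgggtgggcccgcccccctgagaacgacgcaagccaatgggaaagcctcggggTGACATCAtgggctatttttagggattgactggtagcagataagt
The site TGACATCA lies from -45 to -38 relative to the start and TTACCTCA from -164 to -157. Searched on both strands, TGACATCA was in 2.93% of 32851 RefSeq windows of the same 250 bases and TTACCTCA in 0.728%. The classic AP-1 site TGANTCA was in 6.75% of all windows and had no match in the Jun window. Of the 8 members 7 have an entry in the promoter table. No entry was used for Fosl1. The other motifs searched on both strands were the full cyclic AMP response element (CRE) TGACGTCA, in 1.55% of windows, its core TGACG, the CArG box, in 1.47%, and the TATA box TATAA. A match to TGACG was also found from -60 to -56 in the Fosb window and from -106 to -102 in the Junb window, and no motif matched in the Jund window.

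The 2 sham loops at Jun both had a counterpart in MCAO, defined as a loop whose midpoints lie within 1 anchor width at both ends. The shorter spanned 105 kb in sham and 106 kb in MCAO. It joined Jun to an upstream stretch without a protein-coding gene, 95155454 to 95162287 in sham and 95150414 to 95170903 in MCAO. It carried 15 PETs in sham and 17 in MCAO. The longer spanned 811 kb and 812 kb and ended inside Fggy, a carbohydrate kinase gene, at 95854070 to 95879248 in sham and 95855679 to 95877761 in MCAO. It carried 25 PETs in sham and 23 in MCAO. On the log2 scale, MCAO over sham after scaling to 1000000 PETs, the shorter loop differed by -0.03 (-1.12 to 1.07, exact conditional binomial interval) and the longer by -0.33 (-1.22 to 0.54). Neither difference went beyond counting error.

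The other 6 MCAO loops at Jun had no counterpart in sham. The strongest of them carried 28 PETs (18.6 to 40.5), spanned 511 kb and joined Jun to 95553159 to 95571427, over the end of Fggy that is nearer to Jun. It had more PETs than 90.2% of all MCAO loops. The next carried 21 PETs, spanned 879 kb and reached 95916672 to 95938029, over the far end of Fggy. A loop of 13 PETs spanned 691 kb to 95735434 to 95753314, and a loop of 11 PETs spanned 587 kb to 95632835 to 95643264, both within Fggy away from its ends. A loop of 11 PETs reached 127 kb upstream to 95176839 to 95189662, where no protein-coding gene lies. In the opposite direction, past the 3′ end of Jun, a loop of 15 PETs joined it over 43.9 kb to 95001948 to 95008443, which lies 22.8 kb from Mysm1, a histone deubiquitinase gene, and overlaps no protein-coding gene. Thus 7 of the 8 MCAO loops ran upstream and 5 of the 8 ended in Fggy, against 2 of 2 and 1 of 2 in sham.

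Scaled to the sham depth, the 6 loops without counterpart would hold 9.49 to 24.2 PETs, and 4 of them would still reach the minimum of 10. With at least 15 PETs per loop Jun had 2 loops in sham and 5 in MCAO, and the same numbers among the loops on the better side of each list's median hypergeometric p-value, as the authors gave it. The exact Poisson intervals of the loop numbers, 0.242 to 7.22 for sham and 3.45 to 15.8 for MCAO, overlap. Among all protein-coding genes 0.0594% (13 genes) had at least 6 more loops in MCAO and 0.114% (25 genes) had at least 8 loops in MCAO. Jun was listed as a member with its loop numbers known, so its place in this tail is a description. The 8 Jun-side anchors in MCAO overlap the same gene and share reads, so the loops are not independent of each other.

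Around Jun, the loops that do not touch it were as many in sham as in MCAO. With both anchors within 1 Mb of the gene there were 6 in each list, so loops at Jun made up 2 of 8 in sham (25%, 3.19 to 65.1, exact Clopper-Pearson interval) and 8 of 14 in MCAO (57.1%, 28.9 to 82.3). Of the loops that do not touch Jun, 5 of 6 in sham and 2 of 6 in MCAO crossed over the gene. The remaining loops lay to one side of it.

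A site past the 3′ end of Jun that holds no protein-coding gene was joined to the far part of Fggy in both libraries. In sham, 94993426 to 95007606 was joined to 95893392 to 95908367 with 16 PETs, and 94997285 to 95019584 to 95914645 to 95932097 with 18 PETs. In MCAO, 94999700 to 95011723 was joined to 95906641 to 95930668 with 21 PETs, a counterpart of both sham loops. A further MCAO loop, with 19 PETs and no counterpart, joined 94999612 to 95017853 to 95859266 to 95874995, where the longer loop of Jun itself ends. The same site is the far end of the 43.9 kb loop that Jun had in MCAO.

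Of the 6 partner anchors that Jun had in MCAO alone, 4 overlapped an anchor of a sham loop, a share near the background given below. The anchors that Jun reached 511 kb and 587 kb away in MCAO were joined to each other in sham, by a loop of 72.5 kb with 14 PETs inside Fggy. The anchor 879 kb away served 2 sham loops that crossed Jun, of 12 and 18 PETs. As background, 68.0% of all anchors of gene-end loops in MCAO and 73.0% of those in sham overlapped an anchor of the other list.

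The remaining loops near Jun carried 10 to 26 PETs. In sham, 2 loops with 11 and 12 PETs ran over 1353 and 1249 kb, from Ift74, an intraflagellar transport gene, to Hook1, a gene of a microtubule adaptor, and to Fggy. Another sham loop, of 10 PETs, joined a stretch 17.3 kb past Jun to Hook1 over 969 kb. In MCAO, a loop of 26 PETs joined 95351270 to 95393373, between Jun and Fggy and without a protein-coding gene, to the far part of Fggy. Loops of 10 and 12 PETs joined parts of Fggy to Hook1 and to each other, and 1 of 11 PETs joined Plaa and Caap1 to Mysm1.

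**Figure D2:**
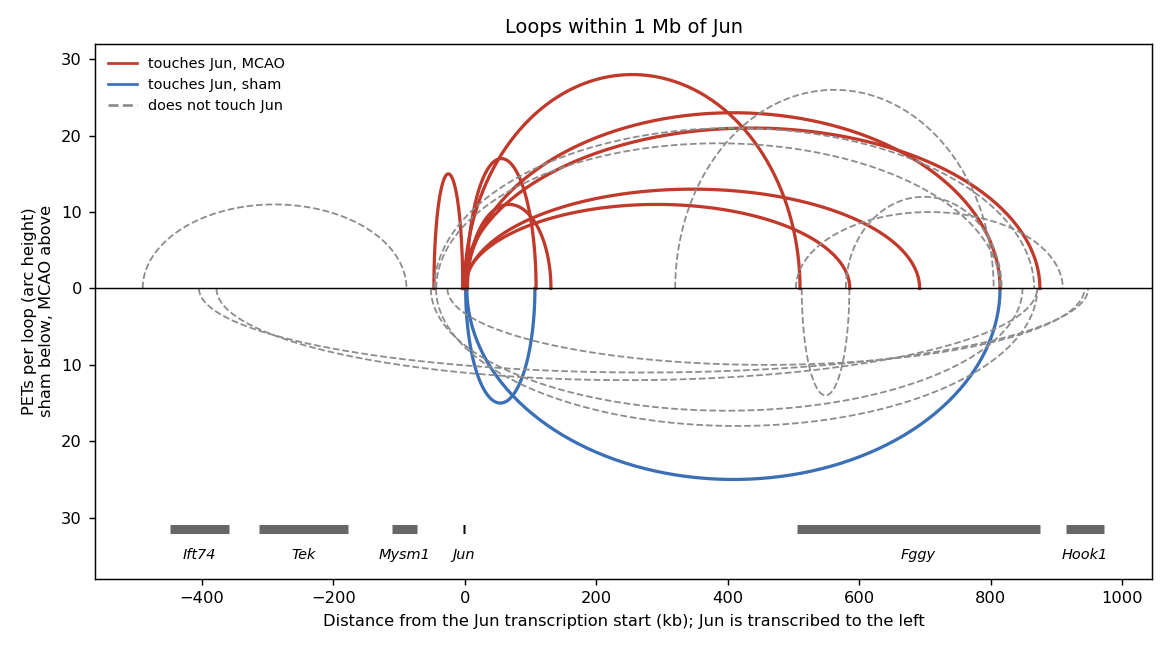
Loops within 1 Mb of Jun as arcs between anchor midpoints, by distance from the Jun transcription start in kb, with MCAO above the axis and sham below. Arc height is the number of PETs, coloured arcs touch Jun, dashed arcs do not, and bars at the bottom are selected genes. The MCAO arcs at Jun fan out over Fggy, while sham has a single long arc there, and dashed arcs number 6 on each side.

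Fosl2 (chromosome 5, 32136472 to 32157840, plus strand), which encodes the Fos-related antigen Fra-2, had 3 loops in each list. This was the most of any member in sham and the most after Jun in MCAO. All 6 anchors covered the Fosl2 start, and all 6 loops ran upstream. The 250 bases before the start are shown for comparison with Jun, from RefSeq on GRCm38.p6, chr5:32136222-32136471, plus strand, 5′ to 3′. None of the motifs searched matched in it, so it has no capitals.
Fosl2: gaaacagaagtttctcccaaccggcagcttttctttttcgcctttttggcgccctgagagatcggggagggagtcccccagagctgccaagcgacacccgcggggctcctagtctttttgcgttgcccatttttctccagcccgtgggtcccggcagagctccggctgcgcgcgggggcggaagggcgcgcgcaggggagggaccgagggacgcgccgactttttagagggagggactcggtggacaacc
In sham, loops of 14, 16 and 21 PETs spanned 437, 567 and 543 kb. In MCAO, loops of 32, 18 and 13 PETs spanned 572, 438 and 96.2 kb. The far anchors near 437 kb covered ends of Rbks, the ribokinase gene, and Babam2, a gene of a deubiquitinating complex, in both libraries. Those of the sham loop of 567 kb and the MCAO loop of 572 kb lay at Slc4a1ap, in both libraries. The sham loop of 543 kb ended 6.27 kb from Mrpl33, a mitochondrial ribosome gene, and its nearest counterpart was the same MCAO loop of 32 PETs. The MCAO loop of 96.2 kb, inside Babam2, had no counterpart.

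Fos (chromosome 12, 85473890 to 85477274, plus strand) had 1 loop of 14 PETs in each library, to opposite sides. The sham loop spanned 238 kb upstream to 85210351 to 85230306, at Eif2b2, a gene for a subunit of a translation initiation factor. Its Fos-side anchor was 57.5 kb wide, against 20.0 kb in MCAO. The MCAO loop spanned 124 kb downstream to 85593848 to 85608258, at an end of Jdp2, the gene of Jun dimerization protein 2, which represses AP-1 sites. It was the only loop in either list that joined a member to another member or to a gene of the AP-1 network lists described further down. Neither Fos loop had a counterpart. The start of Fos lay in an anchor in both libraries, and the 250 bases before it are shown for that reason, from RefSeq on GRCm38.p6, chr12:85473640-85473889, plus strand, 5′ to 3′. Capitals mark the TATA box TATAA and matches to TGACG, the CRE core.
Fos: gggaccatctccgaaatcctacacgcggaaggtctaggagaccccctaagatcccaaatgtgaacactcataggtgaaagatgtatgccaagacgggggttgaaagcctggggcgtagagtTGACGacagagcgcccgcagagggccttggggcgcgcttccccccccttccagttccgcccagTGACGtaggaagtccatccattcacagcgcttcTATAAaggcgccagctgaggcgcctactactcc
The CRE cores begin at -129 and -66 and the TATA box at -33. TGACG, which occurs in any full CRE, was in 17.8% of all windows on either strand, and TATAA in 22.8%.

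Fosb (chromosome 7, 19302696 to 19310118, minus strand), whose splice form ΔFosB accumulates with repeated stimulation, had 2 loops in sham and none in MCAO. The stronger sham loop carried 29 PETs (19.4 to 41.6), the most of any sham loop at the members, over 45.6 kb. Its anchor stopped 0.929 kb short of the 3′ end of Fosb, did not reach the Fosb start, and also lay at Rtn2, a reticulon gene. Its partner at 19341161 to 19347665 lay at Ercc1, a DNA repair nuclease gene, and the loop had no counterpart. The second sham loop covered the start and joined it over 395 kb to Tomm40, a gene for a mitochondrial import channel, Apoe, the apolipoprotein E gene, and Nectin2, with 10 PETs. It had a counterpart of 19 PETs in MCAO whose anchor began 10.3 kb beyond Fosb, so that loop was not counted at Fosb. The count of 0 in MCAO thus turned on the position of an anchor for this loop.

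Fosl1 (chromosome 19, 5447698 to 5455938), the gene of Fra-1, had 1 loop of 11 PETs in each library with different partners. In sham it spanned 400 kb to Frmd8 and Slc25a45, a mitochondrial carrier gene, and in MCAO 30.5 kb to 5421980 to 5428667, at AI837181 and Drap1, a corepressor gene. The anchors at Fosl1 lay at ends of 5 genes in sham and 2 in MCAO, Fosl1 included, so these loops cannot be assigned to Fosl1 alone.

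Atf3 (chromosome 1, 191170296 to 191183333, minus strand) had 1 loop upstream in each library, again with different partners. The sham loop of 10 PETs spanned 98.3 kb to an anchor without a protein-coding gene, at 191273207 to 191280898. The MCAO loop of 11 PETs spanned 385 kb to Ints7, an Integrator subunit gene, and Dtl, a ubiquitin ligase adaptor gene. Both covered the Atf3 start, and the 250 bases before it are shown for that reason, from RefSeq on GRCm38.p6, chr1:191183334-191183583, minus strand, 5′ to 3′. The capitals mark a CRE core on the other strand.
Atf3: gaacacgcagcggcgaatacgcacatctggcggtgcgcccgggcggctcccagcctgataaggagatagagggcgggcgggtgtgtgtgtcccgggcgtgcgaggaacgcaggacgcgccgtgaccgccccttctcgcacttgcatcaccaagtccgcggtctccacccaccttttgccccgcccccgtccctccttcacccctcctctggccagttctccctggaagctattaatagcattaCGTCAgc
This core lies from -7 to -3 relative to the start.

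Junb and Jund, both on chromosome 8, had few loops or none. Junb (84976909 to 84978748) had 1 loop in MCAO, of 16 PETs over 54.9 kb to Get3 and Trir. Its anchor lay at Prdx2, a peroxide-reducing enzyme gene, and Rnaseh2a, and ended 2.42 kb from Junb, close to the limit of 2.5 kb. With no window at gene ends this loop was not counted. Jund (70697739 to 70700616), the Jun gene that is expressed most steadily, had no loop in either list, while within 1 Mb of it the lists held 7 loops in sham and 18 in MCAO.

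**Figure D3:**
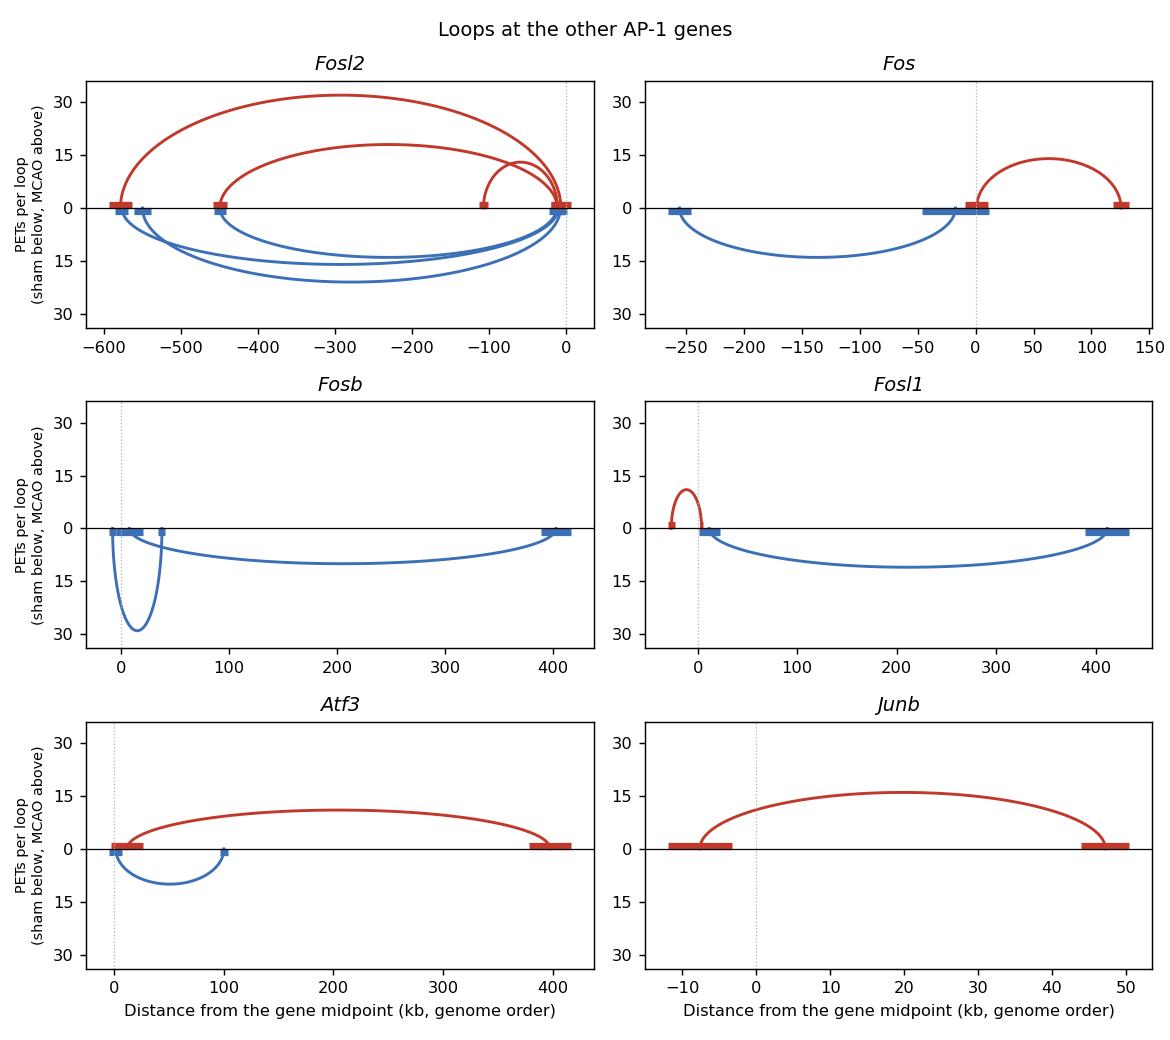
Loops at the 6 other AP-1 genes with a loop, as arcs between anchor midpoints by distance from the gene midpoint in kb, MCAO in red above the axis and sham in blue below. Arc height is PETs per loop and thick bars are the anchors. Fosl2 has similar long arcs in both lists, and Fos, Fosl1 and Atf3 have 1 arc per list to different partners.

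Within 1 Mb of the other members, loops not touching them were mostly more numerous in MCAO. The numbers were 10 in sham and 15 in MCAO around Fos, 4 and 7 around Fosb, 8 and 14 around Fosl1, 10 and 18 around Atf3 and 9 and 10 around Junb. Fosl2 went the other way, with 14 and 7, and around Jun the numbers were 6 and 6. At the genes themselves Fosl2 had 3 and 3 loops and Jun 2 and 8. The numbers within 1 Mb stand without the same count around other genes, so they cannot be read as particular to AP-1 genes. The MCAO list was longer, with 15592 loops against 14779 in sham, and its median span was shorter, 309 kb against 377 kb. The part of list length and span in these numbers was not tested.

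Counterparts were found for 6 of the 10 sham loops at the members (60%, 26.2 to 87.8, exact Clopper-Pearson interval) and for 4 of the 15 MCAO loops (26.7%, 7.79 to 55.1). Over all gene-end loops the shares were 34.3% in sham and 28.2% in MCAO, inside both intervals. These intervals take the loops as independent, which they are not. The counterparts belonged to Jun, Fosl2 and the longer Fosb loop. The Fosl2 sham loops of 543 and 567 kb had the same MCAO loop of 32 PETs as counterpart. In 5 pairs that were each other's nearest counterpart the summed PETs were 80 for sham against 109 for MCAO. Per 1000000 PETs this is a log2 ratio of 0.23 (-0.20 to 0.67). With PETs unscaled it is 0.45 (0.02 to 0.88), and scaling by the median ratio of all pairs left that value unchanged. The 2 Fosl2 pairs had 14 and 18 PETs (0.15, -0.94 to 1.27) and 16 and 32 PETs (0.79, -0.12 to 1.75), and the Fosb pair had 10 and 19 (0.71, -0.46 to 1.98). The interval of each single pair held 0. The median over all 3554 such pairs was -0.21, with quartiles of -0.80 and 0.37, so the Jun pairs lay within the quartiles and the Fosb pair and the longer Fosl2 pair above them.

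**Figure D4:**
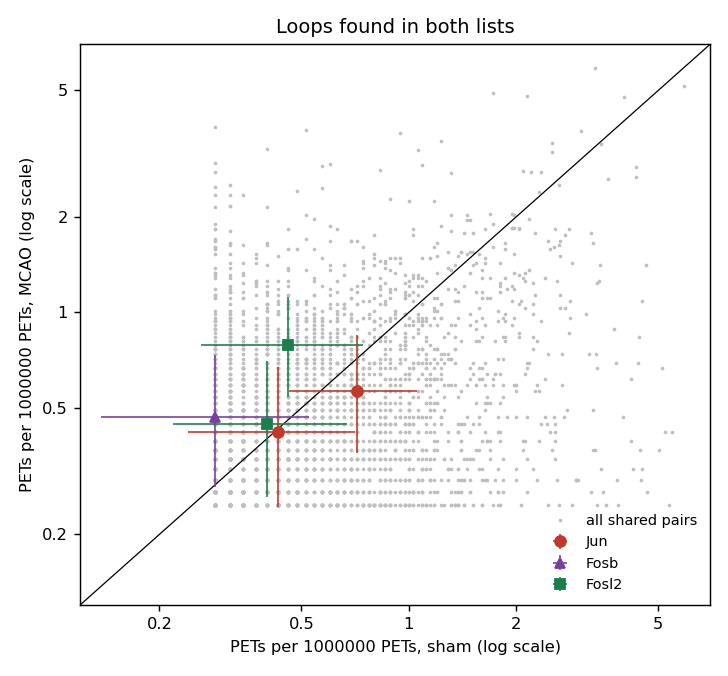
PETs per 1000000 PETs in sham and MCAO, both on log scales, for loops found in both lists, with all 3554 pairs in grey and the 5 pairs at AP-1 genes in colour. Lines are exact Poisson intervals and the diagonal marks equality. The 5 coloured points lie among the grey ones, with log2 ratios of -0.33 to 0.79.

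Read density at the member anchors is given beside the loop numbers. In reads per kb of anchor per 1000000 PETs, the Jun-side anchors held 0.993 and 2.05 in sham and 0.958 to 1.39 in MCAO, and the 2 long counterpart loops, whose anchors are alike in width, 0.993 and 1.05. The Fosl2 anchors held 0.743 to 0.790 in sham and 0.851 to 0.896 in MCAO. Over all member-side anchors the median was 0.777 in sham (range 0.561 to 2.05) and 1.06 in MCAO (0.656 to 1.39). In MCAO, 8 of these 15 anchors were at Jun. The median over all gene-end anchors was 0.660 in sham and 0.665 in MCAO. The part of read density in the loop numbers was not tested.

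Genes that work with AP-1 were taken from 3 lists. Of 25 basic leucine zipper relatives, 12 had more loops in MCAO and 3 fewer, with 22 distinct loops in sham and 39 in MCAO. Maf, a factor gene of cell differentiation, had 2 and 6 loops and Cebpd, an inflammatory C/EBP gene, 1 and 4. Atf1 and Atf2 had 0 and 2 each. The strongest loop at Cebpd was its single sham loop, of 46 PETs, and none of its MCAO loops exceeded 13. At Maf the strongest loop was in MCAO, with 53 PETs, against at most 17 for its sham loops. The MCAO loops reached at most 13 PETs at Atf1 and 28 at Atf2. The product of Atf2 pairs with c-Jun. Of 26 kinases and regulators, 12 had more and 5 fewer, with 30 and 32 distinct loops. The Jun N-terminal kinase gene Mapk8 had 2 and 0 loops, as did Mapk9, while Mapk10, also such a kinase gene, had 1 and 1. Mapk9 and Mapk10 are named here after their values were seen. Map2k7, whose product activates these kinases, had 0 and 2, as did the p38 gene Mapk14, and Map2k2 2 and 0. The MCAO loops at Mapk14 had at most 11 PETs, near the minimum of 10. Fbxw7, whose ubiquitin ligase marks c-Jun for degradation, had 5 and 0. Of these 5 sham loops, 1 had a counterpart in MCAO that was not counted at Fbxw7. Of 25 known AP-1 targets, 9 had more and 6 fewer, with 19 and 20 distinct loops, and with 3 and 0 at the adhesion receptor gene Cd44, 4 and 2 at the cyclooxygenase gene Ptgs2 and 0 and 2 at the cell death gene Bcl2l11. The shares with more loops, 48%, 46.2% and 36%, stand beside 28.7% of all genes, and the shares with fewer, 12%, 19.2% and 24%, beside 20.7%. No loop was listed in either library at 5, 5 and 9 genes of the lists, against 8397 of all 21883 protein-coding genes. A gene without loops can go neither way, and the shares above were not adjusted for this. The median difference was 0 in each list and over all genes.

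Only Gfra2, the neurturin receptor gene on chromosome 14, and Ppp3ca, the calcineurin gene on chromosome 3, shared the loop numbers of Jun, 2 in sham and 8 in MCAO. Ordered by distance in log2 of summed PETs + 1 over the 2 libraries, Gfra2 was nearest (0.59) with 56 and 178 PETs, against 40 and 139 at Jun, followed by Ppp3ca (0.93) with 27 and 234. At Gfra2 2 of the 8 MCAO loops had a sham counterpart, as at Jun, and at Ppp3ca 1 did.

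**Figure D5:**
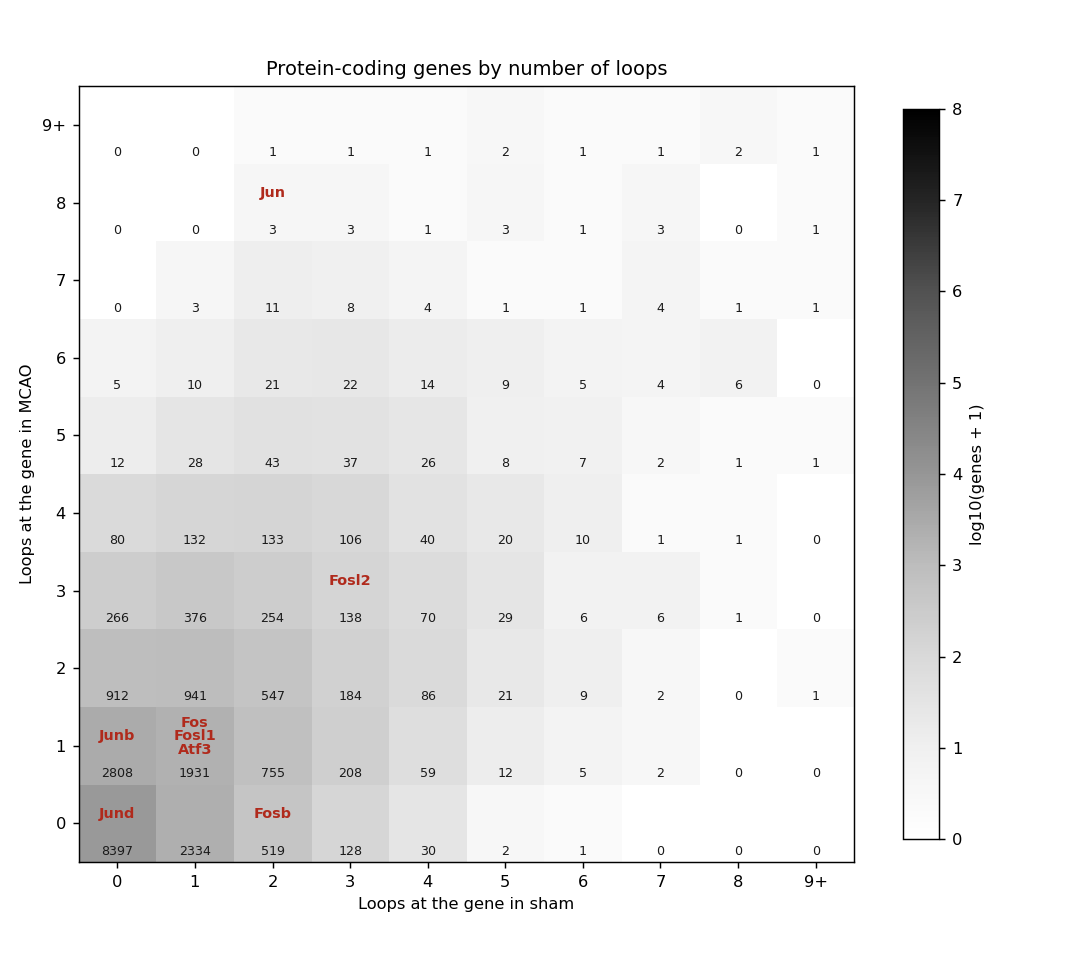
Number of protein-coding genes with each combination of loops in sham (x axis) and MCAO (y axis), with the last row and column holding 9 or more, shaded by log10 of the number of genes + 1. The AP-1 genes are printed in red in their cells. Jun stands in a cell of 3 genes, Fosl2 in one of 138, and Jund in the cell of 8397 genes without loops.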

How the data were processed

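Hi-C libraries of sham and MCAO cortex were compared through 1 loop list per group, grouped by sample title. HiC-Pro and Bowtie2 with mm10 are named in the submitters' processing notes, without versions; the loop caller and the step at which cortices were pooled were not stated in the labels used. PET and read counts are whole numbers as deposited, without depth scaling. The density signal deposited by the authors is PETs per kb of anchor per 1000000 PETs, which returned the same library total for every loop and gave the depths used. The authors' ratio values (enrichment, P2LL) were not used for results. Each loop also has an FDR and p-values from the authors; the hypergeometric p-value served only to rank loops within a list.

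Gene positions are those of the RefSeq table on GRCm38.p6, the assembly of mm10, and starts and strands those of its promoter table. At each end the wider of the 2 compared anchors set the distance allowed for a counterpart. The members and gene lists were chosen with earlier results of these data known. Named are all members, at most 3 genes per partner anchor, at most 5 genes per network list with a difference of at least 2 loops, and the genes most like Jun. Mapk9 and Mapk10 were added to this rule's genes after their values were seen, as were genes at the member-side anchors and at loops near Jun. A gene that this rule names is not reported here. Computed with Python 3.11.15, pandas 2.3.3 and scipy 1.17.1; counting and matching were tested on simulated data. Alternatives covered windows, PET minimum, a p-value rank, depth, the counterpart rule and scaling. Thinning was computed as its expected value, not drawn.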

Additional observations from a re-analysis of the deposited data

How the results depend on the processing

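More loops at Jun were listed in MCAO under all 7 alternatives, with a difference of 3 to 6. It was 3 with at least 15 PETs and 3 for loops on the better side of the median hypergeometric p-value. Every Jun-side anchor covered an end of Jun, so dropping the window or counting any part of the gene could not remove a loop. The numbers stayed at 2 and 8 there and with a window of 10 kb. The alternatives use the same loops again and are not separate support. For all AP-1 genes together the difference of 5 ranged from 2.93 to 7. It was 3 with at least 15 PETs, 3 by p-value rank and 2.93, an expected value, after thinning MCAO to the sham depth. The number of AP-1 genes with more loops in MCAO, 2 as reported, was 1 with no window at gene ends, 1 with any part of the gene counted and 4 with a window of 10 kb. Near Jun, the difference of 0 loops became -1 with at least 1 anchor within 1 Mb, 1 with both anchors within 500 kb, 1 with at least 15 PETs, 1 by p-value rank and -1.45 after thinning. The share of loops with a counterpart, 40% over both lists, ranged from 32% to 53.8% over its 9 alternatives. All lay within 21.1 to 61.3, an interval that takes the loops as independent. They are not, since a matched pair counts once from each list and the alternatives use the same loops again. The log2 ratio of the shared loops ranged from 0.15 to 0.45. With unscaled PETs it was 0.45 (0.02 to 0.88), an interval without 0. Scaling by the median ratio of all pairs left the unscaled values unchanged, so it is not a separate alternative. No paired analysis was possible because each group has 1 library. At 10 PETs, the minimum, the exact Poisson interval runs from 4.80 to 18.4, so loops near it cannot be told from unlisted ones.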
